A study of Mus musculus with 18 samples.

Results

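Cytochrome P450 genes encode haem-containing monooxygenases, and the 95 genes described here are the protein-coding mouse genes whose symbol is Cyp followed by a number, letters and a number, or Cyp51. They belong to 40 subfamilies, and all 95 are listed among the 46078 gene identifiers of the series. In liver 58 of them had a mean of at least 1 normalized count, the minimum for testing, against 24 in spleen, 20 in brain and 17 in tail-tip fibroblasts. A total of 64 passed in some tissue and 14 in all 4 tissues, and none of the 95 lies on the X chromosome. A gene that passed because of its level in one genotype alone is counted here like any other, so the counts of tested members do not describe all 95.

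P450 enzymes of the endoplasmic reticulum take electrons from the reductase Por, and mitochondrial ones take them from a ferredoxin. In liver the CYP2 and CYP3 families oxidise drugs and other foreign compounds, the CYP4 family hydroxylates fatty acids, and other members make bile acids. Many are switched on by ligand-activated receptors, among them Ahr (aryl hydrocarbon receptor), Nr1i2 (PXR), Nr1i3 (CAR) and Ppara. Further members remove retinoic acid, make steroid hormones or carry out a step of cholesterol synthesis.

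The mutant mice were females with a homozygous deletion of Xist, the RNA that silences one X chromosome in female cells, and the controls were females with a heterozygous deletion. The controls therefore carry the deletion too, on one X chromosome. RNA of liver, spleen and brain was sequenced at postnatal day 1 from 2 mutants and 2 controls each, and RNA of primary tail-tip fibroblasts from 3 mutant and 3 control cultures, which makes 18 libraries in 8 groups. The series text calls the replicates biological, and the Cre line behind the deletion, if any, is not named in the labels.

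The libraries held 12356231 to 29154395 reads in genes, and values are the authors' normalized counts, here called signal, on which 1 read is worth 0.0343 to 0.0751. A count of 0 allows a level of up to 0.103 to 0.225 signal, which is what 3 reads are worth, and this covers counting error only. Xist was 3.05-fold lower in mutant than in control livers by mean signal, with 178 and 257 in mutants against 594 and 730 in controls, and 13.9-fold lower in spleen, 174-fold in brain and 11.6-fold in fibroblasts. The 12 hepatocyte markers were all detected in liver, with summed signal of 152370 and 128870 in mutants and 149712 and 133977 in controls. In spleen the 7 markers of pancreatic acinar cells summed to 14.1 and 6746 in mutants and 872 and 9.12 in controls, and mutant library 1 listed 32107 genes with a read, against at most 26754 in the other spleen libraries.

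Levels of the P450 genes differed between tissues by order of size and by member. Per kb of exon, the highest liver members were Cyp4a14, a fatty acid hydroxylase, at a mean of 728 signal per kb, Cyp2e1, which oxidises ethanol and other small molecules, at 655, and Cyp2d26 at 551. In spleen the highest were Cyp4f18, a hydroxylase of leukotrienes in neutrophils, at 27.5 signal per kb and Cyp2s1 at 13.7. In brain and fibroblasts the first place went to Cyp51, the sterol demethylase of cholesterol synthesis, at 27.9 and 33.7 signal per kb. Each tissue was normalized on its own, so levels set across tissues are approximate. P450 genes took 0.538% to 1.07% of gene reads in liver libraries and at most 0.0557% in the libraries of the other tissues.

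**Figure D1:**
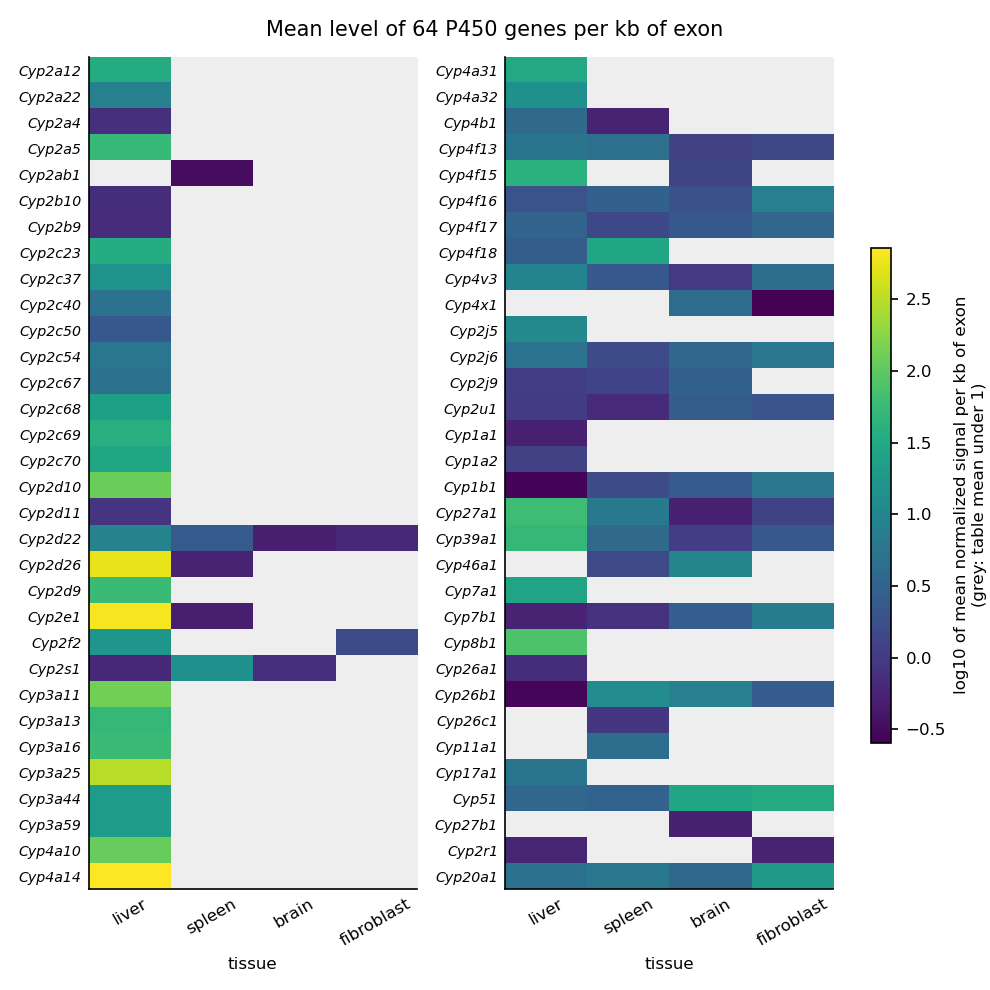
Mean normalized signal per kb of exon (log10 colour scale) of the 64 P450 genes whose mean reached 1 in some tissue, averaged over the libraries of both genotypes; rows are genes grouped by class, columns are the 4 separately normalized tissues, and grey marks a mean under 1. Most CYP2, CYP3 and CYP4A genes are coloured in liver alone, while 14 genes are coloured in all 4 tissues.

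In newborn liver the P450 genes split in both directions rather than moving together. Cyp2a5 and Cyp1b1 were higher in mutants and Cyp2c50 and Cyp2a22 were lower by DESeq2, and all 9 tested members of the Cyp2c subfamily had a fold change below 0, of which 4 changed sign when 1 library was left out. limma, the main test, called 0 of the 58 members after adjustment over all genes, where 0% of the 15075 genes tested passed, and edgeR also called 0. At an unadjusted p under 0.05, limma found 14 members, 6 higher and 8 lower, and edgeR found 13. This is 24.1% of the members by limma, against 6.67% of all genes tested. DESeq2 called 4 of the 58, against 1.4% of all genes, with 2 members higher (0.955% of all genes) and 2 lower (0.444%).

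Both mutant livers stood above both controls for 11 members and below them for 11, which is 19% of the 58 in each direction. Among all genes tested these shares were 23.5% above and 13.1% below. Fold changes were above 0 for 23 members and below 0 for 35, with a median log2 fold change of −0.23, against 0.05 over all genes tested. The sum of the 58 members was 5433 and 10061 signal in mutants and 6548 and 10533 in controls, and the difference of −794 gave p = 0.667 in an exact two-sided permutation test that cannot go below 0.33. The sum was low in both libraries numbered 1 and high in both numbered 2, whatever the genotype. In bulk RNA, fewer cells of a type and less RNA per cell cannot be told apart.

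**Figure D2:**
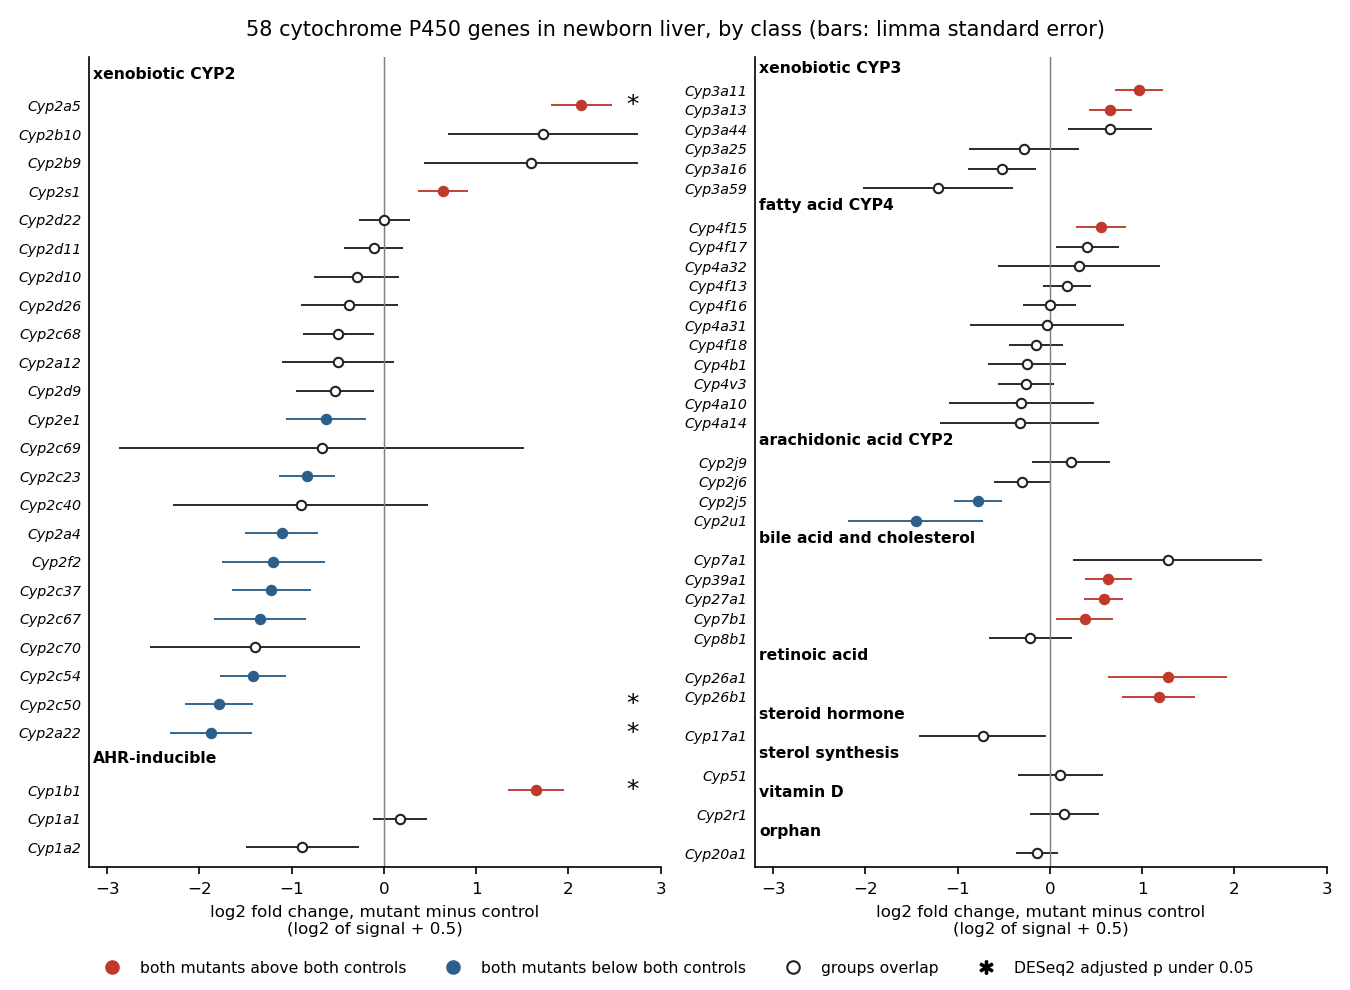
Log2 fold change (mutant minus control, on log2 of signal + 0.5) of the 58 P450 genes tested in liver, grouped by class; points are limma estimates from 2 mutants and 2 controls, bars are standard errors, red and blue mark groups that do not overlap, and stars mark genes called by DESeq2. The Cyp2c genes all lie left of 0, and Cyp2a5 and Cyp2a22 of the same subfamily lie at opposite ends.

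Cyp2a5, which hydroxylates coumarin and nicotine, had 135 and 229 signal in mutant livers, against 44.0 and 35.4 in control livers. Its log2 fold change was 2.14 ± 0.33 (limma SE, adjusted p = 0.367), and DESeq2 gave an adjusted p of 3.99e-05. Leaving out each library in turn kept the DESeq2 call in all 4 cases, with adjusted p up to 0.0356. The other members of its subfamily lay on the other side of 0.

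Cyp2a22 had 10.1 and 12.1 signal in mutants and 27 and 64.5 in controls, a log2 fold change of −1.87 ± 0.45 (limma adjusted p = 0.591, DESeq2 adjusted p = 0.00174). The DESeq2 call was lost without control library 2 (adjusted p = 0.421) and without mutant library 1 (0.0987). Cyp2a12, a steroid hydroxylase in mouse liver, had 66.2 and 113 signal in mutants and 69.2 and 217 in controls, and these groups overlapped. Cyp2a4, a testosterone hydroxylase, was near the detection limit, with 0.904 and 0.377 signal in mutants and 1.46 and 2.41 in controls. Its mutant mean of 0.641 was under the minimum of 1, so it passed through the controls, which favours a fold change below 0.

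Cyp2a4 and Cyp2a5 share much of their sequence: 38.8% of the 50-base windows in the exons of Cyp2a4 also occur in another gene, mostly Cyp2a5. Reads of 50 bases from such windows cannot be assigned to one gene by sequence, and how the authors counted them is not known here, which leaves the low level of Cyp2a4 uncertain. The level of Cyp2a5 is uncertain too, since 37.0% of its windows are shared, 28.1% with Cyp2a4. The same holds for Cyp2a22 and Cyp2a12, where 20.2% and 20.1% of windows are shared. The start regions of these genes are shown because those of Cyp2a5 and Cyp2a4 are nearly the same. Cyp2a5 and Cyp2a4 differed in level and in the sign of the fold change, though the minimum mean favoured the sign of Cyp2a4. Cyp2a22 had the sign of Cyp2a4. The windows are those of RefSeq on GRCm38.p6, from 250 bases before to 50 bases after the start of transcription, with capitals for the letters TATAAA on the strand shown and for AGGTCA, a nuclear receptor half-site, on either strand. Cyp2a5 lies at chr7:26835089-26835388 (plus strand), Cyp2a4 at chr7:26306942-26307241 (plus strand) and Cyp2a22 at chr7:26939337-26939636 (minus strand).
Cyp2a5: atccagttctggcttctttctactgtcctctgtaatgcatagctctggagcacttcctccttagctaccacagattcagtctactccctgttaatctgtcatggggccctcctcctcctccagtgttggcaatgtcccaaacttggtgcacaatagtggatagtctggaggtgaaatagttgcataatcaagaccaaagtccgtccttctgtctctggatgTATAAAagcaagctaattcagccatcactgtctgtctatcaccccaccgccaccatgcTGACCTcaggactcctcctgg
Cyp2a4: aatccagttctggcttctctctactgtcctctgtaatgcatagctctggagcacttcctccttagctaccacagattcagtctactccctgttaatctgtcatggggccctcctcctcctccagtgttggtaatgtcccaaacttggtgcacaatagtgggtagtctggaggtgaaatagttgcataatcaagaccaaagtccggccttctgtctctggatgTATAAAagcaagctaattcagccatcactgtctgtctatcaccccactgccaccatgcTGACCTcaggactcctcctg
Cyp2a22: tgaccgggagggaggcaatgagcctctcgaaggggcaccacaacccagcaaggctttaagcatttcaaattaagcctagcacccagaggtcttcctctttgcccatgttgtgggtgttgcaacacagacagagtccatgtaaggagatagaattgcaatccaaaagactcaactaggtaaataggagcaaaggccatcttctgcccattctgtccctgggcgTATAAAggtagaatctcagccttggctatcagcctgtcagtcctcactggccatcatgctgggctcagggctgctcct

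The windows of Cyp2a5 and Cyp2a4 were identical at 294 of 299 aligned bases (98.3%), and those of Cyp2a5 and Cyp2a22 at 171 of 258 (66.3%). TATAAA stands 29 bases before the start of Cyp2a5, 28 before that of Cyp2a4 and 28 before that of Cyp2a22. Of all 32851 RefSeq windows 8.32% hold TATAAA on the gene's strand, against 24 of the 84 windows of P450 genes (28.6%), which cover 74 of the 95 genes. AGGTCA occurs in 16.3% of all windows and in 22 P450 windows (26.2%). In Cyp2a5 and Cyp2a4 it lies after the start, in transcribed sequence.

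The Cyp2c enzymes oxidise drugs and arachidonic acid. Of 15 members 9 were tested, and 9 had a log2 fold change below 0, with a median of −1.22, against 44.1% of all genes below 0. Both mutants lay below both controls for 5 of them, where 13.1% of all genes did so. Without 1 library, the fold change of Cyp2c40, Cyp2c68, Cyp2c69 or Cyp2c70 turned above 0, to at most 0.93, 0.0019, 1.82 and 0.22. Cyp2c50 had 2.43 and 2.75 signal in mutants and 7.25 and 14.2 in controls, a log2 fold change of −1.79 ± 0.37 (limma adjusted p = 0.526, DESeq2 adjusted p = 0.00118). Its DESeq2 call was lost without control library 2 (adjusted p = 0.764), mutant library 1 (0.174) or mutant library 2 (0.0616). The mutant values of Cyp2c50 came from 51 and 80 reads, and 18.3% of its windows are shared with other genes, mainly Cyp2c37.

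The other 4 with separate groups repeated this order without passing the adjusted test. Cyp2c54 had 7.14 and 3.84 signal in mutants and 12.7 and 17.3 in controls (log2 fold change −1.41 ± 0.36). Cyp2c67 had 3.05 and 6.18 in mutants and 7.95 and 17.5 in controls (−1.34 ± 0.50). Cyp2c37 had 21.9 and 11.5 in mutants and 28.2 and 50.3 in controls (−1.22 ± 0.43). These 3 share 25.7%, 52.8% and 30.1% of their windows with other genes. Cyp2c54 and Cyp2c37 share most with Cyp2c50, and Cyp2c67 shares most with Cyp2c40, so reads may have moved between such pairs. Cyp2c23, an arachidonic acid epoxygenase with no shared window, had 49.2 and 57.1 in mutants and 74.4 and 121 in controls (−0.83 ± 0.30). The limma adjusted p-values of these 4 lay between 0.618 and 0.740, and the DESeq2 ones between 0.0681 and 0.260.

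Of the remaining 4 Cyp2c members, 3 followed the library number more than the genotype. Cyp2c69 had 90.9 and 2.81 signal in mutants and 157 and 4.42 in controls. Cyp2c40 had 16.7 and 0.858 in mutants and 19.6 and 3.58 in controls, and Cyp2c70, with no shared window, had 72.9 and 7.34 in mutants and 105 and 37.2 in controls. Each of the 3 was high in both libraries numbered 1. Without mutant library 1, DESeq2 called Cyp2c40 and Cyp2c70 lower, since the remaining mutant library is the low one. Cyp2c68 had 46.7 and 23.3 in mutants and 41.3 and 52.7 in controls. Cyp2c69, Cyp2c40 and Cyp2c68 share 54.3%, 60.3% and 43.3% of their windows with other genes, so their values are uncertain. Cyp2c40 is the gene that shares most with Cyp2c69 and with Cyp2c68, so the signs of the Cyp2c members are not independent of each other.

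**Figure D3:**
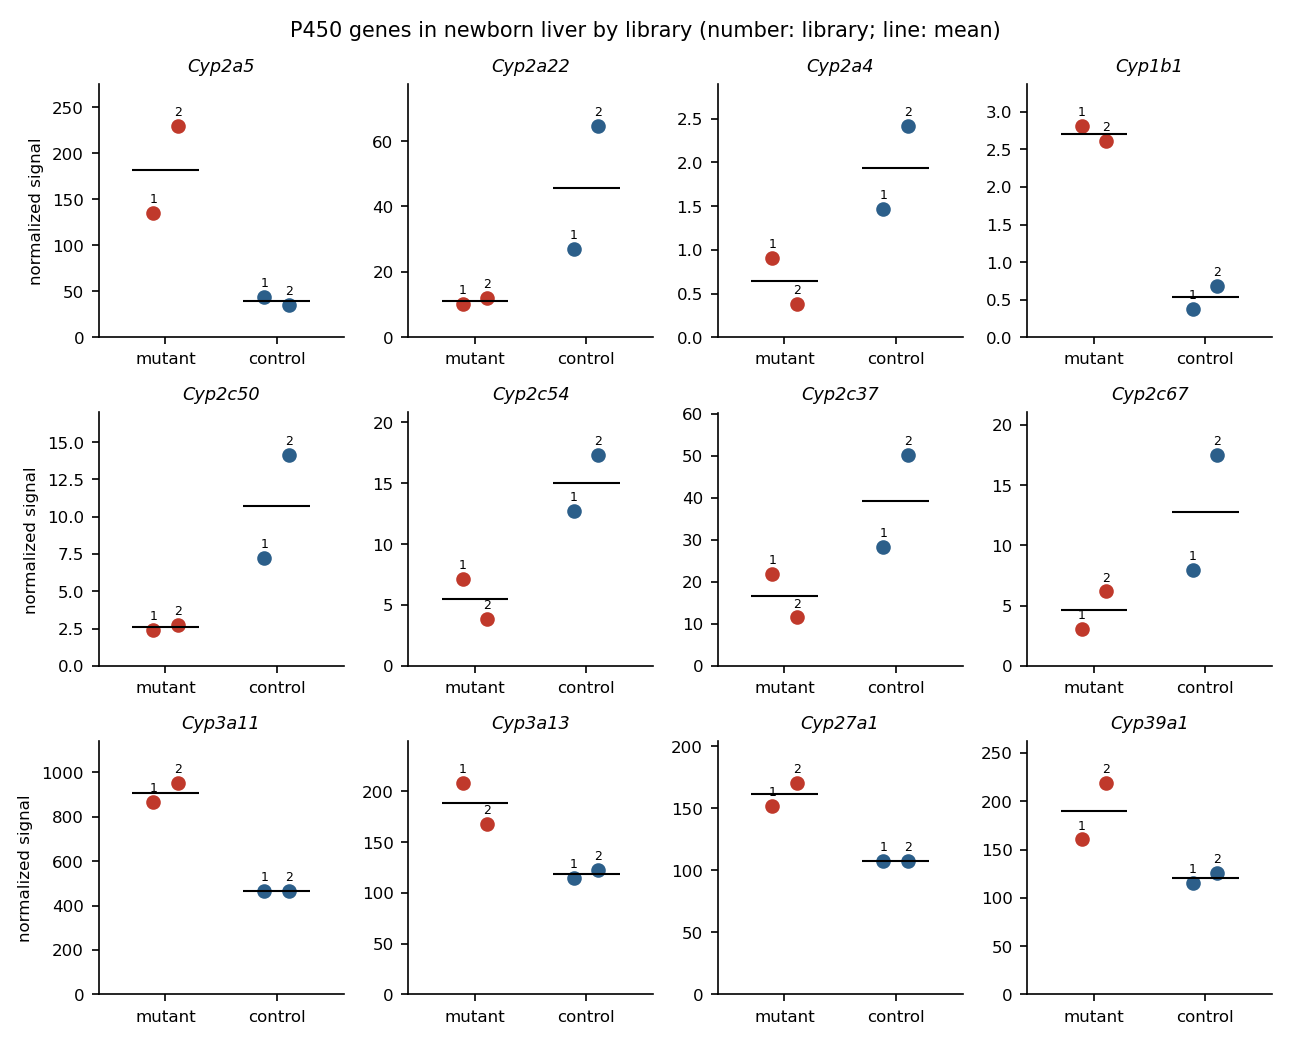
Normalized signal of 12 P450 genes in each newborn liver library, 2 mutants at left and 2 controls at right of each panel; points are libraries with their number, and lines are group means. In all 12 panels the mutants and controls do not overlap, with Cyp2a5, Cyp1b1, Cyp3a11, Cyp3a13, Cyp27a1 and Cyp39a1 higher in mutants and the other 6 lower.

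The start region of Cyp2c50, which lies at chr19:40089429-40089728 (plus strand), is shown for the member of the subfamily that DESeq2 called, with capitals for AGAACA, a glucocorticoid receptor half-site. It is identical to that of Cyp2c37 at 263 of 292 aligned bases (90.1%).
Cyp2c50: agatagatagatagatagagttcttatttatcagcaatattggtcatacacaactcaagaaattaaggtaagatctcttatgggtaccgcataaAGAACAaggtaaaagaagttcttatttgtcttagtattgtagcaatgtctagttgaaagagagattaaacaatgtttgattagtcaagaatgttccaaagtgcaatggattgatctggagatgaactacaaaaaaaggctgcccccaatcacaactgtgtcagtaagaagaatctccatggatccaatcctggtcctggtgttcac

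AGAACA was searched on both strands and stands 156 bases before the start. It occurs in 19% of all windows and in 21 of the 84 P450 windows (25%).

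Among other xenobiotic CYP2 members, Cyp2e1 had 767 and 1526 signal in mutants and 1531 and 1828 in controls, so mutant library 2 and control library 1 were nearly equal (log2 fold change −0.63 ± 0.44, limma adjusted p = 0.863). Cyp2f2, which activates naphthalene in mouse lung and liver, had 18.7 and 16.7 in mutants and 23.2 and 73.0 in controls (−1.20 ± 0.55), a size that rests on control library 2, and without it the log2 fold change was −0.38. The 5 tested Cyp2d members included 4 below 0 and none with separate groups, and Cyp2d26, with 9.49% of its windows shared, had 584 and 1125 in mutants and 729 and 1514 in controls. Cyp2b10, which is induced through Nr1i3, and Cyp2b9 had signal mainly in mutant library 1. Cyp2b10 had 5.57 and 0.240 in mutants and 0.318 and 0 in controls, and Cyp2b9 had 5.23 and 0 in mutants and 0.127 and 0 in controls. Cyp2s1 had 4.62 and 3.36 in mutants and 2.42 and 2.29 in controls (0.64 ± 0.27).

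The Cyp3a subfamily, the main drug-oxidising P450 enzymes of liver, divided by member. Cyp3a11 had 865 and 950 signal in mutants and 464 and 466 in controls, a log2 fold change of 0.96 ± 0.26 (limma adjusted p = 0.641, DESeq2 adjusted p = 0.0608). Cyp3a13 had 208 and 168 in mutants and 115 and 123 in controls (0.66 ± 0.23), and no window of it is shared, against 6.73% for Cyp3a11. In both genes the mutants lay apart from controls that differed little between themselves. Cyp3a16, expressed mainly before and around birth, had 57.5 and 113 in mutants and 109 and 123 in controls, and Cyp3a25, Cyp3a44 and Cyp3a59 also overlapped between genotypes. These 4 share 10.7%, 26.8%, 26.45% and 30.02% of their windows with other genes, so their values are uncertain. The 6 tested members had log2 fold changes from −1.21 to 0.96.

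Of the genes induced through Ahr, Cyp1b1, an oxidase of oestradiol and polycyclic hydrocarbons, had 2.81 and 2.61 signal in mutant livers, against 0.382 and 0.683 in control livers. Its log2 fold change was 1.65 ± 0.30 (limma adjusted p = 0.454, DESeq2 adjusted p = 0.0275), and the control values rest on 6 and 17 reads, so that it passed the minimum mean through the mutants. The call was lost without any one of the 4 libraries, with DESeq2 adjusted p from 0.486 to 1. Cyp1a2, the caffeine-oxidising enzyme of adult liver, had 0.571 and 2.95 in mutants and 3.82 and 2.41 in controls, and Cyp1a1 had 1.38 and 1.89 in mutants and 1.46 and 1.29 in controls. Neither of these was separated by genotype.

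The fatty acid hydroxylases of the Cyp4a subfamily, which are induced through Ppara, followed the library and not the genotype. Cyp4a14 had 721 and 2718 signal in mutants and 976 and 3164 in controls (log2 fold change −0.33 ± 0.86), and it took 13.3% to 30.02% of the P450 reads of a liver library. Cyp4a10 had 87.5 and 403 in mutants and 169 and 321 in controls, and Cyp4a31 had 33.5 and 122 in mutants and 35.2 and 121 in controls. Both libraries numbered 1 were low and both numbered 2 high in each of these genes. Cyp4a10 and Cyp4a31 share 29.8% and 20.55% of their windows with other genes and are uncertain, while Cyp4a14 shares 0.235%. In all, 20 of the 58 members were lower in both libraries numbered 1 than in both numbered 2, and 9 were higher, which is 34.5% and 15.5%. Over all genes tested these shares were 31.9% and 17.9%. Cyp4f15, a fatty acid hydroxylase of another subfamily, had 93.3 and 131 in mutants and 67.9 and 83.0 in controls (0.55 ± 0.27), and of the 11 tested members of the CYP4 class it alone had separate groups.

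**Figure D4:**
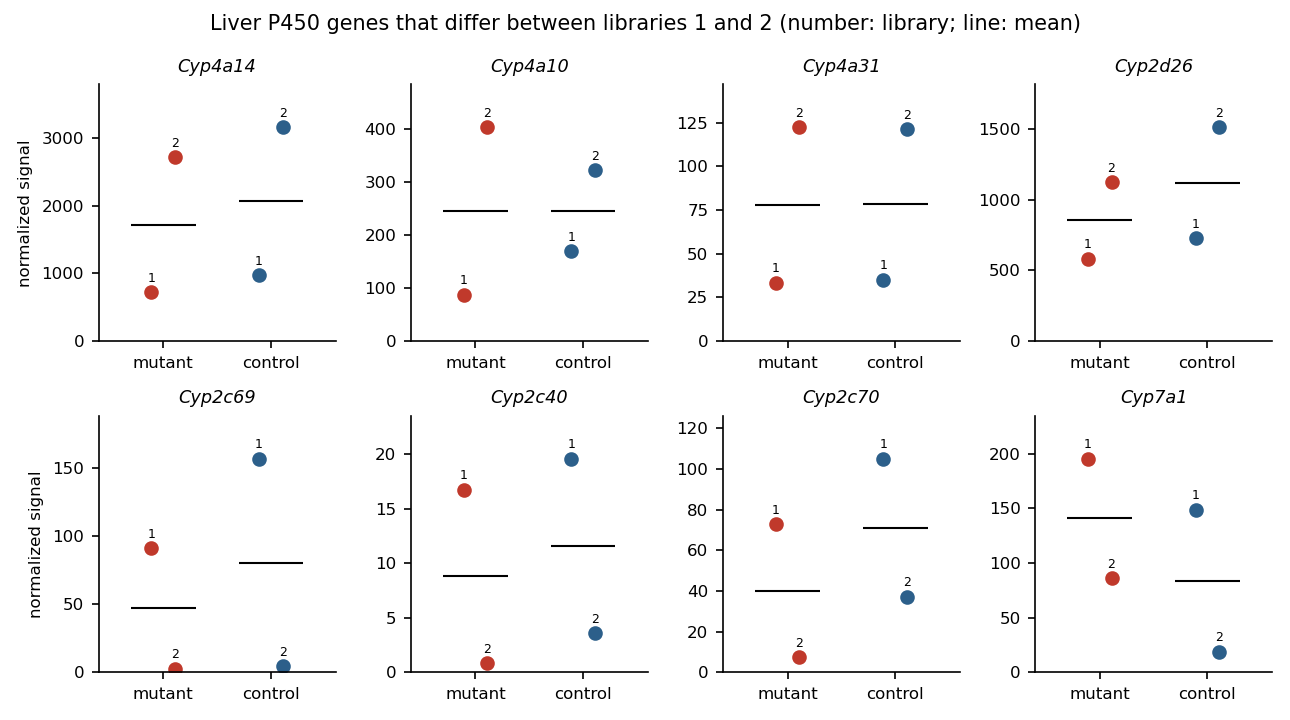
Normalized signal of 8 P450 genes in each newborn liver library, 2 mutants at left and 2 controls at right of each panel; points are libraries with their number, and lines are group means. The 3 Cyp4a genes and Cyp2d26 are high in both libraries numbered 2, and Cyp2c69, Cyp2c40, Cyp2c70 and Cyp7a1 are high in both libraries numbered 1.

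The Cyp2j and Cyp2u1 enzymes, which oxidise arachidonic acid, included 3 of 4 tested members below 0, against 44.1% of all genes. Among them Cyp2j6 (log2 fold change −0.30) overlapped between genotypes and lay between −0.63 and 0.037 without 1 library. Cyp2j5 had 17.7 and 18.7 signal in mutants and 26 and 38.3 in controls (log2 fold change −0.78 ± 0.26, limma adjusted p = 0.717). Cyp2u1 had 0.904 and 5.66 in mutants and 6.17 and 9.21 in controls (−1.45 ± 0.73), a size set by mutant library 1, and without it the value was −0.38.

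In the bile acid and cholesterol class 4 of 5 tested members were above 0, against 55.9% of all genes, with a median log2 fold change of 0.58. Cyp39a1, which hydroxylates 24-hydroxycholesterol, had 160 and 219 signal in mutants and 115 and 126 in controls (0.63 ± 0.26, limma adjusted p = 0.759). Cyp27a1, the sterol 27-hydroxylase of mitochondria, had 152 and 170 in mutants and 107 and 107 in controls (0.58 ± 0.21). Cyp7b1 had 1.38 and 1.48 in mutants and 0.763 and 1.25 in controls. The mutants lay above the controls in these 3 of the 5, against 23.5% of all genes, though none passed an adjusted test. Cyp7a1, the rate-limiting enzyme of the main bile acid pathway, had 195 and 86.2 in mutants and 149 and 18.9 in controls. Cyp8b1, which makes cholic acid, had 166 and 113 in mutants and 235 and 107 in controls. Both overlapped between genotypes, and without 1 library the log2 fold change of Cyp7a1 lay between −0.20 and 2.75.

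The retinoic acid hydroxylases Cyp26a1 and Cyp26b1 were low in liver. Cyp26b1 had 2.33 and 2.16 signal in mutants and 0.382 and 1.17 in controls (log2 fold change 1.18 ± 0.40, limma adjusted p = 0.717). Cyp26a1 had 2.19 and 1.99 in mutants and 0.0636 and 1.53 in controls. Both genes were above controls in both mutants, but their control means of 0.774 (Cyp26b1) and 0.796 (Cyp26a1) were under the minimum of 1, so they passed it through the mutants, which favours that direction.

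The tested liver members of steroid, sterol and vitamin D metabolism and Cyp20a1 overlapped between genotypes. Cyp17a1, a steroid hydroxylase, had 8.37 and 11.7 signal in mutants and 34.3 and 8.0 in controls, with control library 1 high. Cyp51 had 23.9 and 9.68 in mutants and 15.8 and 12.5 in controls. Cyp2r1, the vitamin D 25-hydroxylase, had 0.904 and 1.75 in mutants and 1.34 and 0.884 in controls. Cyp20a1, whose substrate is not known, had 9.99 and 11.5 in mutants and 10.8 and 13.0 in controls. Of the 95 genes Cyp24a1, the vitamin D 24-hydroxylase, had no read in any liver library.

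Hepatocyte content was compared with the P450 sum directly. The log2 ratio of the P450 sum to the hepatocyte marker sum was −4.81 and −3.68 in mutants and −4.51 and −3.67 in controls, a difference of −0.15 (exact permutation p = 0.667). Of the 12 hepatocyte markers 4 were above 0 and 8 below, against 55.9% and 44.1% of all genes. Their median log2 fold change was −0.03. DESeq2 called 1 of them (1.4% of all genes), Tat, the fasting- and glucocorticoid-induced tyrosine aminotransferase. Tat had 5327 and 3290 signal in mutants and 334 and 536 in controls (log2 fold change 3.31 ± 0.42, DESeq2 adjusted p = 4.68e-12). The 6 endothelial markers were all above 0, against 55.9% of all genes. In 5 of them both mutants lay above both controls, against 23.5% of all genes. The 6 summed to 786 and 799 in mutants and 576 and 637 in controls. Of the 6 fibroblast markers 5 were also above 0, and 5 had both mutants above both controls, though their sums overlapped between genotypes. Of the 6 stellate cell markers 5 were below 0, against 44.1% of all genes. The 9 erythroid markers, of a cell type that newborn liver still makes, summed to 29060 and 12674 in mutants and 22938 and 7636 in controls, so they were high in both libraries numbered 1. The part of these cell types in the P450 differences was not tested.

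The electron donor and the receptors of the P450 system also differed by gene. Por had 1456 and 1754 signal in mutants and 770 and 806 in controls, a log2 fold change of 1.02 ± 0.30 (limma adjusted p = 0.674, DESeq2 adjusted p = 0.0430). It was the 1 of 19 genes of electron transfer and haem synthesis called by DESeq2 (1.4% of all genes). Of the 19, 14 were below 0, against 44.1% of all genes. Ahr had 108 and 81.3 in mutants and 51.6 and 48.7 in controls (0.89 ± 0.24, limma adjusted p = 0.641, DESeq2 adjusted p = 0.312). Nr1i2 had 77.9 and 76.4 in mutants and 66.7 and 67.0 in controls, and Nr1i3 had 47.0 and 198 in mutants and 142 and 235 in controls. Ppara had 153 and 182 in mutants and 155 and 133 in controls. Of 30 tested regulators 18 were above 0, against 55.9% of all genes. DESeq2 called 1, the coactivator Ppargc1a, with 218 and 146 in mutants and 27.4 and 44.3 in controls (2.34 ± 0.35, DESeq2 adjusted p = 4.72e-06).

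Other drug-handling enzymes of liver lay mostly below 0, with 20 of 28 tested genes, against 44.1% of all genes, and a median log2 fold change of −0.41. DESeq2 called 2 of them lower, against 0.444% of all genes. Aox3, an aldehyde oxidase, had 20.3 and 15.3 signal in mutants and 44.1 and 99.8 in controls (DESeq2 adjusted p = 0.00177), and Sult2a8, a sulphotransferase that acts on bile acids, had 2.19 and 2.47 in mutants and 7.0 and 9.81 in controls (DESeq2 adjusted p = 0.000589). Bile acid genes outside the P450 family had 12 of 13 tested below 0, against 44.1% of all genes, and none called. Beside them 4 of 5 P450 genes of the class were above 0 (55.9% of all genes), and this difference was not tested. These lists were chosen with earlier results of these data known, and their counts are descriptions.

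In spleen 24 P450 genes were tested, and the fold changes were mostly above 0. Cyp1b1 and Cyp26b1 were higher in mutants by DESeq2, by 4.86-fold and 3.95-fold in mean signal. Fold changes were above 0 for 19 members and below 0 for 5, with a median log2 fold change of 0.44, against −0.07 over all genes tested. limma called 0 members, where 0% of 16578 genes passed, and edgeR called 0. At an unadjusted p under 0.05 limma and edgeR each found 6, and the 6 of limma were all higher (25%, against 6.27% of all genes). DESeq2 called 2 members, against 1.05% of all genes, and both were higher (0.905% of all genes). Both mutants were above both controls for 10 members and below them for 1, which is 41.7% and 4.17%, against 18.3% and 21.9% of all genes. Cyp4b1, Cyp2ab1, Cyp2d26 and Cyp2e1, all above 0, had control means under the minimum of 1 (0.799, 0.524, 0.815 and 0.774). They passed it through the mutants, which favours that direction, and Cyp4b1 is among the 10.

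Cyp1b1 had 16.9 and 14.7 signal in mutant spleens, against 3.52 and 2.98 in control spleens. The replicates of each genotype were close, and the log2 fold change was 2.12 ± 0.32 (limma adjusted p = 0.205, DESeq2 adjusted p = 7.84e-05). The DESeq2 call was lost without mutant library 1 (adjusted p = 0.339) or mutant library 2 (0.0643), while limma called the gene without mutant library 2 (adjusted p = 0.0235). Cyp26b1 had 136 and 66.7 in mutants and 16.3 and 35.1 in controls, a log2 fold change of 1.97 ± 0.48 (limma adjusted p = 0.534, DESeq2 adjusted p = 0.00554). Its DESeq2 call was lost without mutant library 1 (adjusted p = 1), and limma called it without mutant library 2 (0.00253). Mutant library 1 is also the one with the most genes listed with a read.

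The start regions of both genes are shown as those of the members that DESeq2 called in spleen, with Cyp1b1 at chr17:79715012-79715311 (minus strand) and Cyp26b1 at chr6:84593761-84594060 (minus strand). Capitals mark TATAAA on the strand shown and, on either strand, GCGTG, the core of the element bound by the Ahr and Arnt pair.
Cyp1b1: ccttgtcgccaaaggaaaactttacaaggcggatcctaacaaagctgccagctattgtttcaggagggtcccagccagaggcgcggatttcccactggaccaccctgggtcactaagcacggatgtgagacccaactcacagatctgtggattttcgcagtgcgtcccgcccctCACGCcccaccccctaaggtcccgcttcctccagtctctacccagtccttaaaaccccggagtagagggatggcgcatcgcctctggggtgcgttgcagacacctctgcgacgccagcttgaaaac
Cyp26b1: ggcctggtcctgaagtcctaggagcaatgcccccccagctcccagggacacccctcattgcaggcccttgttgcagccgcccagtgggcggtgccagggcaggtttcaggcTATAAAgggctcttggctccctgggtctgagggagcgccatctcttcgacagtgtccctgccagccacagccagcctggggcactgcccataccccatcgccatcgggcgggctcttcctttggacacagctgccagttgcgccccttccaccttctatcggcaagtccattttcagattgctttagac

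The Cyp1b1 window holds GCGTG once, on the other strand and so printed as CACGC, 76 bases before the start, and the Cyp26b1 window holds none. In Cyp26b1 TATAAA stands 139 bases before the start. GCGTG occurs in 32.4% of all windows and in 18 of the 84 P450 windows (21.4%). Ahr itself had 65.7 and 60.6 signal in mutant spleens and 58.3 and 51.5 in control spleens (log2 fold change 0.20 ± 0.26).

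Of the 6 fibroblast markers, DESeq2 called 2 higher in mutant spleens (0.905% of all genes) and limma called none. All 6 had a fold change above 0 (43.5% of all genes), and 5 had both mutants above both controls (18.3% of all genes). They summed to 4303 and 2508 signal in mutants and 1952 and 2134 in controls. Among them Pdgfra, a growth factor receptor of mesenchymal cells, had 516 and 455 in mutants and 109 and 146 in controls (DESeq2 adjusted p = 7.89e-06). Of the 6 endothelial markers 5 were above 0, and Lyve1, of lymphatic and sinusoidal endothelium, had 26.4 and 11.1 in mutants and 5.52 and 3.04 in controls (DESeq2 adjusted p = 0.00888). Of blood cell markers, 0 of 9 erythroid, 0 of 8 neutrophil, 0 of 5 megakaryocyte, 2 of 5 lymphocyte and 4 of 6 macrophage markers were above 0, with none called by limma or DESeq2. The sums of each of these 5 lists overlapped between genotypes, as for erythroid markers with 17400 and 21861 in mutants and 39487 and 20446 in controls. Hepatocyte markers summed to 493 and 47.3 signal in mutant spleens and 359 and 24.6 in control spleens, high in both libraries numbered 1. Of 11 tested 9 were above 0. The tested members Cyp2e1, with 2.55 and 0.161 in mutants and 1.31 and 0.239 in controls, and Cyp2d26, with 1.95 and 0.429 against 1.03 and 0.596, were also higher in the libraries numbered 1. The part of these cells in the P450 differences was not tested.

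Other spleen members did not pass an adjusted test. Cyp39a1 had 19.98 and 13.5 signal in mutants and 8.13 and 7.69 in controls (log2 fold change 1.01 ± 0.33, limma adjusted p = 0.736). Cyp2j9 had 7.74 and 4.503 in mutants and 1.31 and 3.16 in controls (1.32 ± 0.48). Cyp2s1 had 41.3 and 63.6 in mutants and 33.7 and 133 in controls, and Cyp4f18 had 45.97 and 69.0 in mutants and 27.6 and 61.5 in controls. Both overlapped between genotypes, each with a low control library 1. Cyp11a1, the side-chain cleavage enzyme that starts steroid synthesis, was the member below in both mutants, with 17.6 and 18.9 in mutants and 21.6 and 30.3 in controls (−0.48 ± 0.30). Beside it Nr5a1, a regulator of steroidogenic tissues that spleen also expresses, had 34.0 and 57.9 in mutants and 32.3 and 48.9 in controls, and Star had 3.68 and 4.99 in mutants and 2.62 and 3.70 in controls.

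Other drug-handling genes had 16 of 22 above 0 in spleen, against 8 of 28 in liver. Over all genes tested 43.5% were above 0 in spleen and 55.9% in liver. Aox3 had 13.7 and 11.8 signal in mutant spleens and 2.07 and 1.73 in control spleens (log2 fold change 2.47 ± 0.33, DESeq2 adjusted p = 5.71e-06), opposite in sign to its liver value, and the difference between tissues was not tested. Aox1 had 13.4 and 10.7 in mutants and 3.17 and 2.80 in controls, and Sult1a1 had 47.9 and 31.5 in mutants and 10.8 and 9.06 in controls, and DESeq2 called both higher.

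In brain none of the 20 tested members was called, by limma (0.0237% of 16909 genes), DESeq2 (0.242% of all genes) or edgeR. At an unadjusted p under 0.05 limma found 0 members and edgeR 1, Cyp2j9. Both mutants lay above both controls for 6 members (30%) and below for 4 (20%), against 13.8% and 16.3% of all genes. The members' median log2 fold change in brain was 0.11. Cyp51 had 107 and 124 signal in mutants and 134 and 128 in controls (log2 fold change −0.18 ± 0.11). Cyp26b1 had 54.8 and 41.9 in mutants and 30.8 and 49.7 in controls. Cyp46a1, the cholesterol 24-hydroxylase of neurons, had 27 and 33.1 in mutants and 32.5 and 33.6 in controls, and Cyp4x1, a brain-enriched member, had 17.3 and 18.7 in mutants and 16.9 and 20.8 in controls. These last 3 overlapped between genotypes.

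Among the smaller brain members, Cyp2j9 had 11.7 and 11.4 signal in mutants and 8.68 and 8.75 in controls (0.39 ± 0.18, limma unadjusted p = 0.0565). Cyp4f15 had 1.87 and 3.12 in mutants and 3.55 and 3.64 in controls (−0.48 ± 0.28). Cyp2d22 had 1.81 and 1.34 in mutants and 2.46 and 2.14 in controls (−0.44 ± 0.27). The groups of all 3 were separate, with an adjusted p of 1.00 by limma.

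In fibroblasts limma, DESeq2 and edgeR called none of the 17 tested members (0% of 13077 genes by limma and 0.0229% by DESeq2), and none had an unadjusted p under 0.05 by limma or edgeR. No member had groups that do not overlap, against 2.07% of all genes with all mutants above and 1.65% with all below. Cyp51 had 45.0, 172 and 117 signal in mutants and 320, 128 and 111 in controls (log2 fold change −0.77 ± 0.60), with mutant library 1 the lowest and control library 1 the highest. The 20 other genes of sterol synthesis had the same lowest and highest library, summing to 918, 2028 and 1656 in mutants and 3956, 1652 and 1491 in controls, and 19 of 20 were below 0. Cyp20a1 had 44.2, 38.5 and 39.7 in mutants and 46.2, 38.6 and 42.7 in controls. Cyp1b1 had 23.2, 18.6 and 59.2 in mutants and 39.8, 36.5 and 32.5 in controls, and Cyp4f16 had 25.9, 23.5 and 29.9 in mutants and 21.4, 26.1 and 25.9 in controls.

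After Cyp51, the 3 fibroblast members with the smallest p-values were not separated by genotype either. Cyp27a1 had 2.04, 3.54 and 3.33 signal in mutants and 2.79, 1.74 and 2.14 in controls (log2 fold change 0.34 ± 0.27). Cyp26b1 had 9.05, 37.4 and 6.98 in mutants and 5.53, 12.1 and 11.9 in controls (0.51 ± 0.65), with mutant library 2 high. Cyp4f13 had 6.26, 8.89 and 5.29 in mutants and 4.99, 5.58 and 7.12 in controls (0.18 ± 0.24).

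Set side by side over the separately normalized tissues, 20 members were tested in both liver and spleen, and 4 of them had both mutants above both controls in both organs. This is 20%, against 5.88% of the 14407 genes tested in both organs. These were Cyp1b1, Cyp26b1, Cyp27a1 and Cyp39a1, of which Cyp1b1 and Cyp26b1 passed the minimum in liver through the mutants alone, with control means of 0.533 and 0.774. Of 16 members tested in liver, spleen and brain, Cyp39a1 was the 1 with mutants above controls in each, with 4.72 and 3.25 signal in mutant brains and 2.84 and 2.87 in control brains (log2 fold change 0.40 ± 0.25). Of the 13272 genes tested in these 3 organs 1.54% had mutants above controls in each. In fibroblasts it overlapped between genotypes, with 5.38, 10.7 and 5.97 in mutants and 5.89, 7.43 and 6.01 in controls. Cyp1b1 and Cyp26b1 overlapped between genotypes in brain and fibroblasts, and the differences between tissues were not tested. The summed P450 signal was 429 and 378 in mutants and 198 and 388 in controls in spleen, and 315 and 321 in mutants and 306 and 337 in controls in brain. In fibroblasts it was 238, 400 and 355 in mutants and 534, 341 and 318 in controls. No sum separated the genotypes, with exact permutation p = 0.667, p = 1 and p = 0.6, where the smallest possible are 0.33, 0.33 and 0.1.

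**Figure D5:**
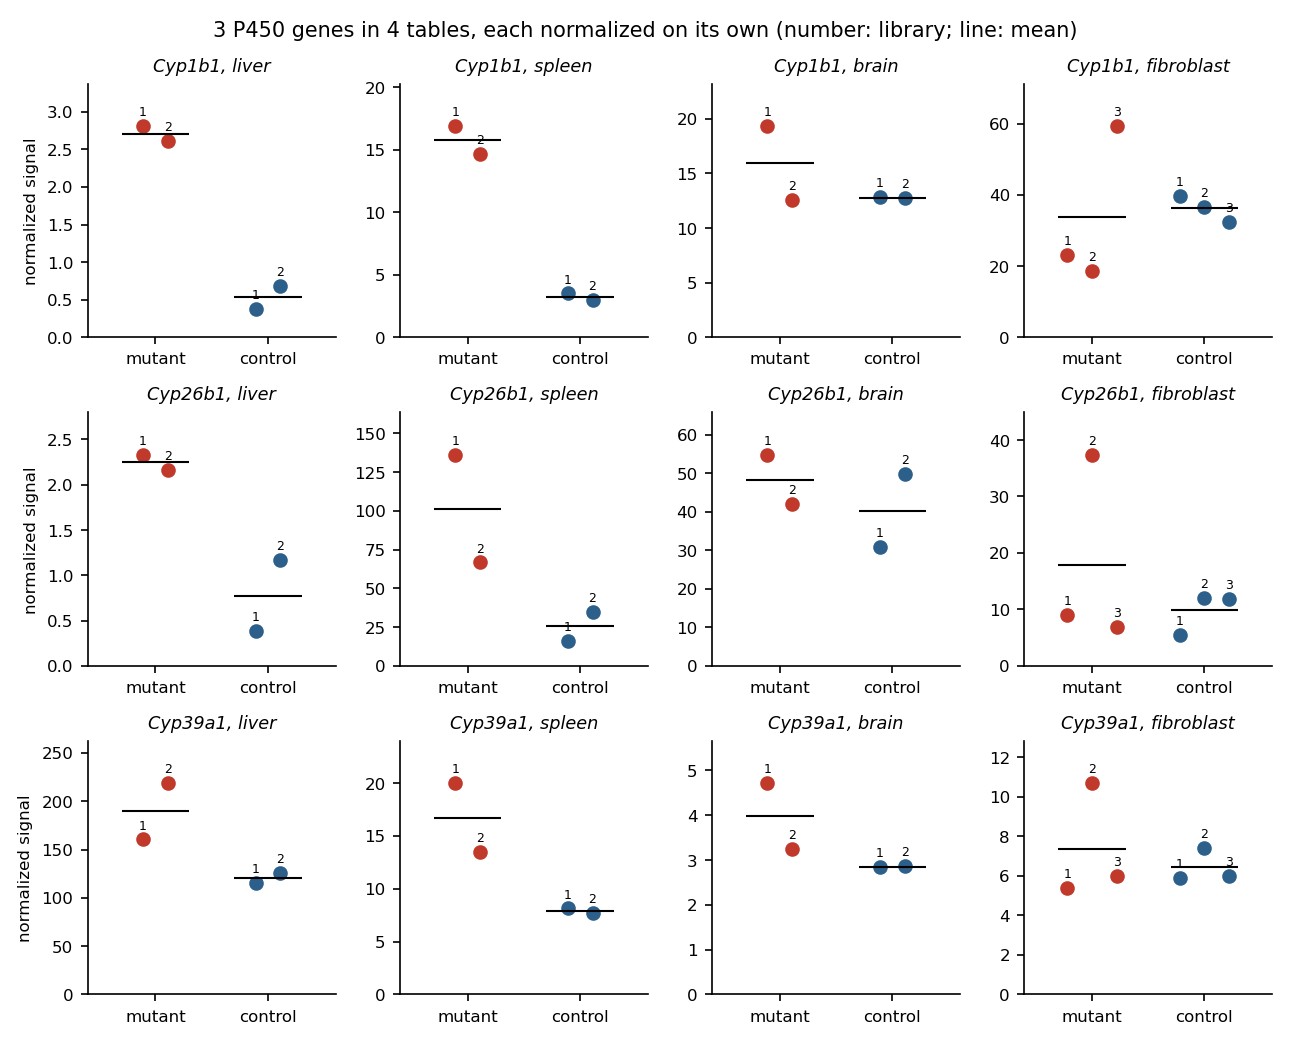
Normalized signal of Cyp1b1, Cyp26b1 and Cyp39a1 (rows) in liver, spleen, brain and fibroblasts (columns), with mutants at left and controls at right of each panel; points are libraries with their number, lines are group means, and the scale differs between panels because each tissue was normalized on its own. In liver and spleen both mutants lie above both controls for all 3 genes, in brain for Cyp39a1 alone, and in fibroblasts for none.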

How the data were processed

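Ribosomal-RNA-depleted RNA was sequenced with 50 nt reads, per the labels' protocols and the series text. The submitters' processing notes name GRCm38 (mm10), HTSeq 0.6.1 and edgeR (version not stated), without their roles. The sources used here do not give the aligner, annotation, strand setting or handling of reads with several matches. The authors deposited 1 table per tissue of normalized signal. In these values, 1 read is worth the same for every gene of a library. Dividing by each library's step recovered whole reads for 100% of values (tolerance 0.05). Identifiers were named by GENCODE vM21 (849 of 46078 had no match, at most 0.179% of reads).

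Genes averaging 1 or more over the libraries of a table were tested within each tissue, mutant minus control, by limma 3.58.1 (trend) on log2(signal + 0.5), in R 4.3.3, with Benjamini-Hochberg adjustment over all genes and a threshold of 0.05. DESeq2 1.42.0 and edgeR 4.0.16 (quasi-likelihood) were run on the recovered reads. Of these steps, only the limma and DESeq2 fits with all libraries were also run on simulated data. Sums were compared by exact permutation. Exon lengths and shared 50-base windows came from the same annotation.

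Members, classes and the 28 other gene lists were chosen with earlier results of these data known. Genes given by library are those past the adjusted threshold by limma or DESeq2, the highest of each class and the 10 largest changes in liver (mean of at least 5, groups separate), and the 4 highest and 4 smallest p-values in each other tissue. Of each other list up to 3 genes with the smallest p could be named, besides the receptors Ahr, Nr1i2, Nr1i3 and Ppara and the reductase Por; genes described beyond this rule were chosen after their values were seen.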

Additional observations from a re-analysis of the deposited data

Results flagged for a closer look

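In 2 genes both mutants lay on opposite sides of both controls in different tissues, and the difference between tissues was not tested in either. The share of all genes that did so was not computed, so the count is a description. Separate groups were common among all genes, with 18.3% above in spleen, 23.5% above in liver and 16.3% below in brain. The log2 fold change of Cyp2d22, a CYP2D member, was 1.10 in spleen, where it had 13.5 and 12.7 signal in mutants and 4.0 and 8.41 in controls, and −0.44 in brain. That of Cyp4f15 was 0.55 in liver and −0.48 in brain, where mutant library 1 had 1.87 signal and mutant library 2 had 3.12.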

How the results depend on the processing

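The calls depended on the test. limma called 0 members in liver and 0 in spleen, DESeq2 called 4 and 2, and without one library limma called 0 to 2 in spleen. DESeq2 without each library in turn, added after its calls were seen, gave 1 to 5 in liver and 0 to 4 in spleen. edgeR, a pseudocount of 1, no filter, a mean of at least 5 and scaling to RPM left the counts of calls at 0 in each tissue.

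Replicate numbers share only a number: the labels do not say what they mark. The correlation of same-numbered deviations was 0.58 in liver, −0.03 in spleen, 0.08 in brain and −0.08, 0.43 and 0.02 in fibroblasts. With a replicate block limma called 2 members in spleen (356 of all genes) and 0 in liver (60 of all genes).

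Sums and medians changed sign with 1 library, and the cause was not tested. Leaving out 1 library, the liver sum difference lay between −3108 and 1520, the hepatocyte ratio between −0.72 and 0.41, and the liver median between −0.27 and 0.10. The brain sum difference, −3.58 in the main analysis, lay between −19.3 and 12.1, and was 0.399 in RPM and 11.8 without its highest member. The fibroblast one, −66.9, lay between −107 and 1.40, and was 8.40 without its highest member.

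With 1 library left out, the limma log2 fold change changed sign for 26 of 58 members in liver, 11 of 24 in spleen, 9 of 20 in brain and 14 of 17 in fibroblasts, none of them called. Ranges follow for those in the rule for named genes; in liver Cyp2c40, Cyp2c68, Cyp2c69, Cyp2c70, Cyp2a12, Cyp7a1, Cyp8b1 and Cyp4a10 are among the others. In liver Cyp17a1 lay between −1.75 and 0.29, Cyp2r1 −0.18 and 0.50, Cyp4a14 −1.29 and 0.63, and Cyp51 −0.52 and 0.75. In spleen Cyp2s1 lay between −1.36 and 0.60 and Cyp4f18 −0.13 and 1.02. In brain Cyp26b1 lay between −0.053 and 0.63, Cyp46a1 −0.29 and 0.0020, and Cyp4x1 −0.20 and 0.089. In fibroblasts Cyp1b1 lay between −0.78 and 0.040, Cyp20a1 −0.12 and 0.0040, Cyp26b1 −0.21 and 0.96, and Cyp4f13 −0.018 and 0.33. With 2 libraries a group, a p from an exact permutation test cannot pass 0.05. Members near 1 signal rest on few reads, such as 6 and 17 for Cyp1b1 in control livers.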

Other observations

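Target genes of Ppara lay mostly below 0 in mutant livers while their best-known P450 members followed the library. Of 19 tested targets 15 were below 0, against 44.1% of all genes. DESeq2 called 3 lower (0.444% of all genes) and 2 higher (0.955% of all genes). Fabp1, a fatty acid binding protein, had 135 and 173 signal in mutants and 357 and 534 in controls (DESeq2 adjusted p = 0.000417). Pdk4, which restrains glucose oxidation, had 145 and 133 in mutants and 28.4 and 34.7 in controls (adjusted p = 5.76e-10), and Angptl4, an inhibitor of lipoprotein lipase, had 272 and 298 in mutants and 97.0 and 100.54 in controls (adjusted p = 2.54e-05). Pdk4 was also higher in spleen, with 91.6 and 119 in mutants and 8.07 and 17.5 in controls (DESeq2 adjusted p = 2.11e-09).

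In liver the steroid enzymes Hsd3b2 and Srd5a1 were lower by DESeq2, and Lss, the cyclase of cholesterol synthesis, was higher. Hsd3b2 had 1.43 and 1.24 signal in mutants and 4.83 and 16.1 in controls, Srd5a1 had 4.14 and 3.57 in mutants and 9.99 and 8.88 in controls, and Lss had 135 and 103 in mutants and 39.9 and 37.4 in controls. The 5 protein-coding genes with a Cyp symbol that the naming rule leaves out had liver means of 4.79 (Cyp3a41a), 0.886 (Cyp3a41b), 2.41 (Cyp4a12a), 1.49 (Cyp4a12b) and 0.00858 (Cyp4a30b) signal.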
